A study of Mus musculus with 34 samples.

Results

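These data describe 9 genes of the platelet cytoskeleton and of integrin activation in hematopoietic stem cells (HSCs): Plek, Rap1b, Rap1a, Cavin2, Tubb1, Ache, Fermt3, Tln1 and Rasgrp2. The members are the rows of the count table with these names, 9 of 13108 gene rows, and several of them were chosen by their higher level in knockout HSCs. The knockout against control values at both ages are therefore given as a description of the genes that were selected, with no p, and support nothing by themselves. Counts of members past a threshold in that contrast restate the choice. The difference between ages within each genotype, which the choice of members does not name, and the other genes of the same pathway are tested here. The lists of those genes were also drawn up with earlier results of these data known.

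HSCs were sorted from bone marrow as LSK CD48-CD150+ cells, 100 cells per library, and each mouse gave a pair of libraries, A and B. All mice were C57BL/6 and carried Ythdf2 fl/fl, a floxed allele with GFP placed behind the start codon, so that control cells make a GFP-YTHDF2 fusion protein. The control group (Ythdf2CTL, here CTL) had no Cre and the knockout group (Ythdf2CKO, here CKO) carried Vav-iCre, which deletes the floxed exon in hematopoietic cells. Young mice were 8 to 12 wk old (4 CTL, 4 CKO) and aged mice were 1 yr old (4 CTL, 5 CKO). Counts of the pair of libraries were summed for each mouse, and the mouse is the replicate. The descriptions of the young libraries begin with another code than those of the aged libraries. What the code marks is not stated, and it cannot be told apart from age.

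YTHDF2 is a cytoplasmic protein that binds mRNA carrying N6-methyladenosine (m6A) and brings it to decay. In platelets, signalling from surface receptors raises calcium and diacylglycerol, the exchange factor encoded by Rasgrp2 loads Rap1 with GTP, and GTP-bound Rap1 brings talin (Tln1) and, with it, kindlin-3 (Fermt3) to the cytoplasmic tail of integrin beta chains. The integrin then binds fibrinogen, and the same machinery lets leukocytes and stem cells adhere. Pleckstrin (Plek) is a major protein kinase C substrate of platelets, beta1-tubulin (Tubb1) forms the microtubule ring of the platelet rim, and Cavin2 coats caveolae. Ache, acetylcholinesterase, is a classical marker of mouse megakaryocytes. HSCs share part of this program with the megakaryocyte line.

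Rap1a and Rap1b encode nearly the same GTPase, so whether reads can tell them apart matters for every value given here. Their coding sequences are both 552 bases long, differ at 101 positions and are 81.7% identical. The first 120 coding bases are shown with the 17 positions at which they differ in capitals. In GRCm38 the Rap1a stretch lies on the minus strand in 2 exons, chr3:105750245-105750301 and chr3:105745910-105745972, and the Rap1b stretch in 2 exons, chr10:117824594-117824650 and chr10:117822807-117822869.
Rap1a: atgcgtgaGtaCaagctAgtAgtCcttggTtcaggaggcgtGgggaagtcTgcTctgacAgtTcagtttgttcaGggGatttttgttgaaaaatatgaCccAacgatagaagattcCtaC
Rap1b: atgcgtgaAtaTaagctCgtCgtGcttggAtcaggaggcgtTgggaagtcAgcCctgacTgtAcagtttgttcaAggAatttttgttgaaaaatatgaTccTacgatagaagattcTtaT
The longest stretch that the principal transcripts share without a difference, UTRs included (2407 bases of Rap1a and 2724 of Rap1b), is 20 bases, coding positions 79 to 98. Other transcripts were not compared. A longer read from these transcripts therefore holds at least 1 base that differs, although the rule used for reads that match several genes is not given in the sources used here.

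The stretch before the annotated start is shown for Plek, Rap1b, Cavin2 and Tubb1, which were higher in every young CKO than in every young CTL mouse, and for Fermt3, the only member with more than 1 of the motifs searched. Each is 251 bases of GRCm38.p6 from RefSeq, the last base in capitals being the annotated start. Plek is on the minus strand (chr11:17008718-17008968), Rap1b on the minus strand (chr10:117845974-117846224), Cavin2 on the plus strand (chr1:51288876-51289126), Tubb1 on the plus strand (chr2:174450345-174450595) and Fermt3 on the minus strand (chr19:7019469-7019719).
Plek: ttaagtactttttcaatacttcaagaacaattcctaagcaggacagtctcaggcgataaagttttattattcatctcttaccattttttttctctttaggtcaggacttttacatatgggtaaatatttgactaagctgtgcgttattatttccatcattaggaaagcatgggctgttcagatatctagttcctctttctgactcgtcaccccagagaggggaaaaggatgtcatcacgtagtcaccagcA
Rap1b: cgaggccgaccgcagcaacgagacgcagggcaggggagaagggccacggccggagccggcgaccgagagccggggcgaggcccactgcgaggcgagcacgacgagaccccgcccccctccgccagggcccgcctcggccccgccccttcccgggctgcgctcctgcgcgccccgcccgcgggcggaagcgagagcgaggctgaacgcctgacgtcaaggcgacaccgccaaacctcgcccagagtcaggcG
Cavin2: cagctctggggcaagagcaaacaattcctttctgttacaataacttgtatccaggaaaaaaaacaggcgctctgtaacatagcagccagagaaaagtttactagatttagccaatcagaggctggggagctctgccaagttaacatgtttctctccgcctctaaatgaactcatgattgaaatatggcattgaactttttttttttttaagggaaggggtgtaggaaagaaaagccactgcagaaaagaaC
Tubb1: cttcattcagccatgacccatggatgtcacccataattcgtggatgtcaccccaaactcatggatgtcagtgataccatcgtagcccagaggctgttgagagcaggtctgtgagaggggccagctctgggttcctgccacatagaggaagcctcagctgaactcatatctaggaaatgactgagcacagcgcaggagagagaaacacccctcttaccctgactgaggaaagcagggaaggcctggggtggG
Fermt3: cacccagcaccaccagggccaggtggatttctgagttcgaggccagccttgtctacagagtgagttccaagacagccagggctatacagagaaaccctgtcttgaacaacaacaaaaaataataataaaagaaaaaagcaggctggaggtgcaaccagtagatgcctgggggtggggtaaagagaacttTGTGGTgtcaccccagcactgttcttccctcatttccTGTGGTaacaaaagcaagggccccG
In these windows, 3 motifs were searched on both strands: AGATAA for factors of the GATA family, CCGGAA for those of the ETS family and TGTGGT for those of the RUNX family. None of these contains another. Of 32851 windows of this length in RefSeq, 10% held the first, 12.1% the second and 14.1% the third. Plek, Rap1b, Cavin2 and Tubb1 held none of these letters. Fermt3 held TGTGGT at 61 and 24 bases before the start, in capitals in its line. Of the members not printed, Tln1 and Ache held none, and 1 of the 2 Rasgrp2 starts held CCGGAA 184 bases before it. The windows differed in base composition, from 37.8% G and C in Plek to 77.3% in Rap1b and 79.3% in the other Rasgrp2 start. Rap1a had no entry.

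Because YTHDF2 recognises methylated adenosine, the letters GGACT, a common core of m6A sites, were counted in the principal coding transcript of each member. No methylation was measured in these files, and a match is a description only. Over 12452 genes of the table with a transcript, 91.6% held at least 1 match, and the median gene had 3.0 matches and 1.05 per kb. Plek held 5 matches (1.22 per kb), Rap1b 1 (0.367 per kb) and Cavin2 1 (0.327 per kb), whereas Rap1a and Tubb1 held none. Tln1 held 12 (1.43 per kb), all in its coding part, Fermt3 held 6 (2.32 per kb, above 92.8% of the genes), Ache 2 and Rasgrp2 1. The members that were higher in CKO HSCs thus included both transcripts with and a transcript without these letters. The single matches of Rap1b and Cavin2 and the coding match of Plek are shown with 10 bases on each side. The Rap1b match is in the 3′ UTR (chr10:117815695-117815719, minus strand), the Cavin2 match in the 3′ UTR (chr1:51301983-51302007, plus strand), and the Plek match spans an exon junction (chr11:16974149-16981820, minus strand).
Rap1b: catcttaaacGGACTttcctgtggt
Cavin2: aatagcaccaGGACTgctgagatag
Plek: gtggcctcacGGACTgggaaatgag

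Ythdf2 itself, the targeted gene, was read first as a check of the labels. It ranged from 93.4 to 123 CPM (a gene's counts scaled to the library total, with TMM factors) in young CTL mice and from 50.3 to 60.3 in young CKO mice, where the table counts the whole gene and not the floxed exon alone. In aged mice 2 labels went against this pattern. The mouse labelled aged CKO 121 had 188 CPM of Ythdf2, where the other CKO mice had 72.4 to 87.8, and the mouse labelled aged CTL 124 had 70.5, where the other CTL mice had 142 to 179. Both are kept under their labels. Differences of the members between genotypes in aged mice and between ages are given with and without them, and for other genes it is said which calls changed. Totals per mouse ranged from 4715947 to 7171657 counts in young and from 2218618 to 10125624 in aged mice, so that 3 counts, the smallest number taken as detection, are worth 0.296 to 1.35 CPM. One library, aged CTL 99 B with 187034 counts, was left out. HSC markers were present in every group: Kit, Slamf1, Ly6a, Procr and the rest of their list, 11 of 11 in the table, summed to 1614 to 1942 CPM in young CTL, 2067 to 2590 in young CKO, 1524 to 2958 in aged CTL and 2276 to 2834 in aged CKO mice, and none was at 0 throughout a group. The young sums did not overlap, but the markers did not rise as a set. Between young groups 5 of 11 had a fitted value above 0, and the median log2 fold change was -0.01. Of these markers Ly6a passed between young groups (280 ± 40.4 CPM in CTL and 643 ± 201 in CKO mice; edgeR, log2 fold change 1.2, adjusted p = 0.0201). That call was lost without young CTL 1 or young CTL 2, where 0 genes passed. Cd48, by whose absence the cells were sorted, had 67.9 ± 14 CPM in young CTL and 102 ± 3.95 in young CKO mice, without overlap. More than 100 counts in all on 4 Y-linked genes were seen in 3 young CTL, 1 young CKO, 1 aged CTL and 1 aged CKO mice. By this measure the mice were of mixed sex, unbalanced between groups. A Y-linked covariate was run for the genotype differences alone. The part of sex in the age differences was not tested. SMART-Seq2 does not mark the strand, so reads of a member cannot be told apart from those of an opposite-strand gene that shares its exon bases: 199 bases of Plek with Cnrip1, 89 of Fermt3 with Trpt1, 360 of Tln1 with Creb3, 98 of Ache with Gm42456 and 265 of Rasgrp2 with Gm14965.

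Levels can be compared between genes only per length, here CPM per kb of exon in GENCODE vM21. In young CTL HSCs Rap1b was highest at 285 ± 52 CPM per kb (SD, n = 4). Fermt3 followed at 54.5 ± 6.44 and Rap1a at 41.4 ± 4.15. Tln1 (20.4 ± 3.98), Plek (19.4 ± 3.42) and Cavin2 (18 ± 3.25) were next and did not differ from each other beyond their spread. Rasgrp2 stood at 7.25 ± 1.08, Ache at 1.11 ± 0.577 and Tubb1 at 0.0391 ± 0.0782 CPM per kb. In aged CKO HSCs Rap1b was again highest (473 ± 167, n = 5), with Fermt3 at 123 ± 21.6 and Cavin2 at 92.5 ± 52.6, while Rap1a was at 23.2 ± 3.75. Without the mouse labelled 121 these were 546 ± 45.9, 115 ± 15.9, 114 ± 22.4 and 23.4 ± 4.29 (n = 4). Exon length is the union over all annotated transcripts, which for Rasgrp2 (12.38 kb) includes long minor forms, and the order depends on it. Per kb of the principal transcript, a length chosen after seeing the data, Rasgrp2 stood at 39.1 ± 5.83 in young CTL HSCs, next to Rap1a (44.9 ± 4.50) and above Tln1 (23.8 ± 4.64), Plek (21.2 ± 3.74) and Cavin2 (18 ± 3.25). Fermt3 stood at 122 ± 14.4, Rap1b at 301 ± 55 and Ache at 2.36 ± 1.22.

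**Figure D1:**
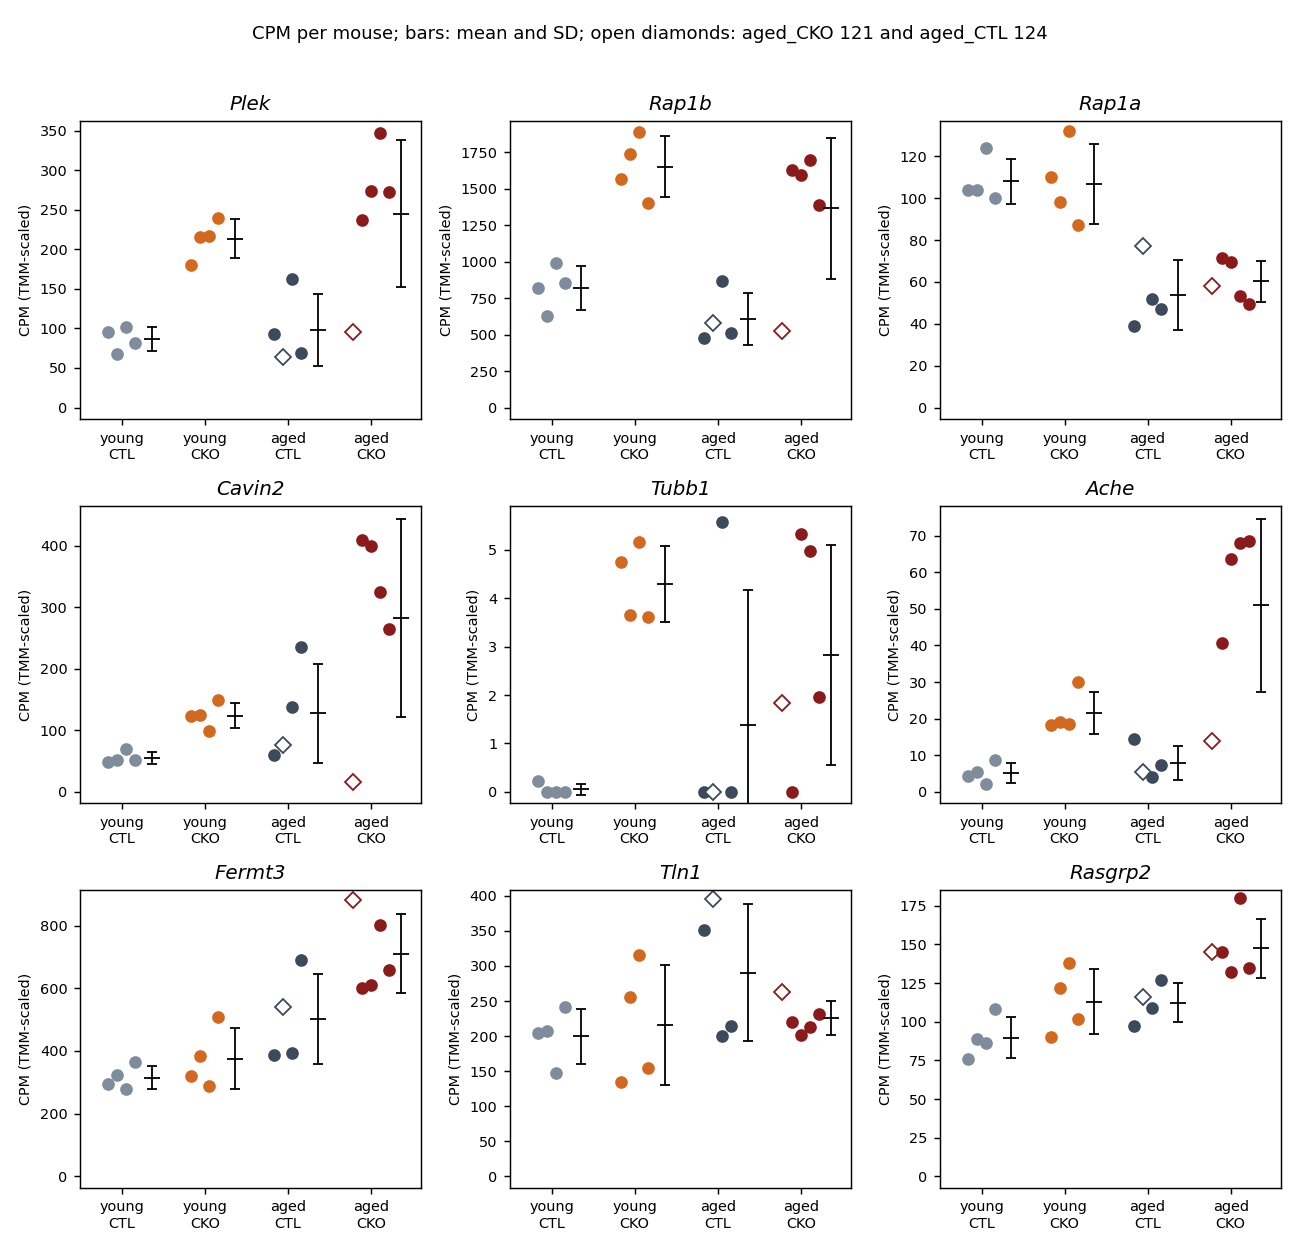
Level of each of the 9 members in CPM (TMM-scaled, linear axis), 1 point per mouse, in young CTL (n = 4), young CKO (n = 4), aged CTL (n = 4) and aged CKO (n = 5) HSCs, with the mean and SD beside the points (the SD bar of Tubb1 is cut off below 0). Plek, Rap1b, Cavin2, Tubb1 and Ache did not overlap between the young groups, and the open diamond of aged CKO 121 lies with or below the aged CTL mice for Plek, Rap1b and Cavin2.

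Rap1b (chr10:117813871-117846035, minus strand), the main Rap1 of platelets, was 2.02-fold higher in young and 2.26-fold higher in aged CKO than in CTL HSCs. In young CTL mice it had 816, 625, 988 and 854 CPM, and in young CKO mice 1568, 1738, 1888 and 1404. Every CKO mouse lay above every CTL mouse, and the log2 fold change was 1.01 ± 0.15 (SE). In aged CTL mice it had 475, 576, 867 and 510 CPM (mice 114, 124, 65 and 99), and in aged CKO mice 526, 1626, 1592, 1695 and 1387 (mice 121, 122, 78, 81 and 94). The aged groups overlapped only through the mouse labelled CKO 121, which lay within the CTL range. The aged log2 fold change was 1.18 ± 0.30 with all mice and 1.35 ± 0.21 without the mice labelled 121 and 124.

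Rap1a (chr3:105727267-105801336, minus strand), its close relative, did not share this pattern. Young CTL mice had 104, 104, 124 and 100 CPM and young CKO mice 110, 98.4, 132 and 87.1, so the groups overlapped widely (log2 fold change -0.02 ± 0.17). Aged CTL mice had 39.1, 77.3, 51.7 and 47 CPM and aged CKO mice 58, 71.6, 69.5, 53.2 and 49.6, in the same mouse order as above. The aged groups also overlapped, with a log2 fold change of 0.17 ± 0.24 and of 0.40 ± 0.23 without 121 and 124.

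The ratio of Rap1b to Rap1a counts within a mouse needs no scaling between libraries. It was 7.57 ± 1.08 (SD, n = 4; 6.01 to 8.49) in young CTL and 15.6 ± 1.63 (n = 4; 14.3 to 17.7) in young CKO mice, and the young groups did not overlap. It was 11.8 ± 3.86 in aged CTL (n = 4; 7.45 to 16.8) and 22.9 ± 8.62 in aged CKO mice (n = 5; 9.07 to 31.9). The mouse labelled aged CKO 121 gave the 9.07, and the other CKO mice lay between 22.7 and 31.9, above all aged CTL mice. Without 121 and 124 the ratio was 13.2 ± 3.11 in aged CTL (n = 3) and 26.4 ± 4.39 in aged CKO mice (n = 4). Since members were picked in part for a rise in CKO HSCs, this ratio is a description too.

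**Figure D2:**
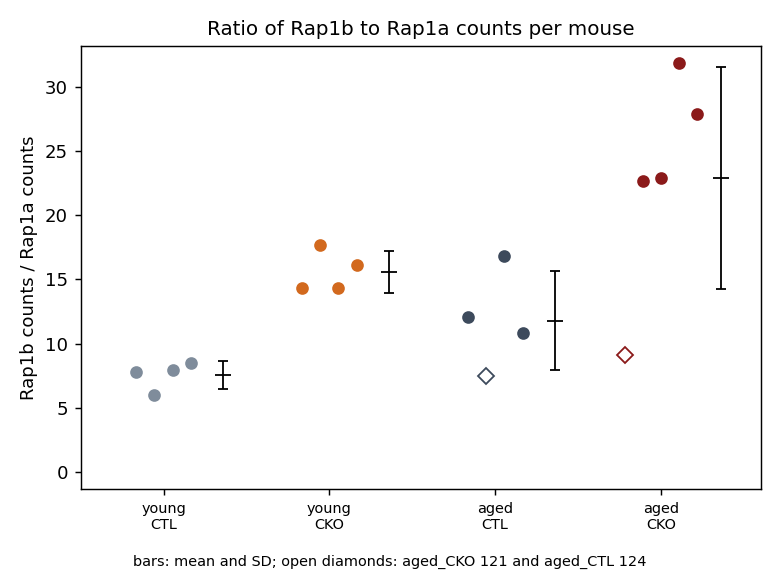
Ratio of Rap1b counts to Rap1a counts in each mouse (linear axis), by age and genotype, with mean and SD; open diamonds are the mice labelled aged CKO 121 and aged CTL 124. Young CKO mice (14.3 to 17.7) lie above young CTL mice (6.01 to 8.49), and aged CKO 121 lies among the aged CTL mice at 9.07.

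Rasgrp2 (chr19:6399340-6415216, plus strand) encodes CalDAG-GEFI, the exchange factor that loads Rap1 in platelets. It had 75.9, 89.1, 86.2 and 108 CPM in young CTL and 90.4, 122, 138 and 102 in young CKO mice, which overlapped (log2 fold change 0.34 ± 0.18). In aged mice it had 97.4, 116, 109 and 127 CPM in CTL and 145, 145, 132, 180 and 135 in CKO mice. It was the only member whose aged groups did not overlap with all mice kept under their labels, and the log2 fold change was 0.40 ± 0.17, and 0.41 ± 0.18 without 121 and 124.

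The genes of the proteins that Rap1 brings to the integrin had smaller differences. Tln1 (chr4:43531519-43562691, minus strand), talin-1, ranged from 147 to 241 CPM (median 206) in young CTL and from 135 to 316 (median 205) in young CKO mice, with a log2 fold change of 0.11 ± 0.24. In aged mice its mean was lower in CKO (226 ± 23.7, n = 5) than in CTL (290 ± 97.8, n = 4), the groups overlapped, and the log2 fold change was -0.35 ± 0.21 with and -0.24 ± 0.20 without 121 and 124. Fermt3 (chr19:6998958-7019469, minus strand), kindlin-3, had 295, 323, 279 and 364 CPM in young CTL and 321, 383, 289 and 509 in young CKO mice (log2 fold change 0.26 ± 0.17). In aged mice it had 388, 539, 393 and 689 CPM in CTL and 883, 602, 611, 801 and 657 in CKO. These groups overlapped, and its log2 fold change was 0.51 ± 0.21, and 0.44 ± 0.22 without 121 and 124.

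Plek (chr11:16971206-17052381, minus strand), pleckstrin, had 95.9, 67.6, 102 and 81.9 CPM in young CTL mice and 180, 216, 217 and 240 in young CKO mice. The groups stood well apart, and the log2 fold change was 1.3 ± 0.17. In aged CTL mice it had 93.5, 64, 163 and 69.3 CPM, and in aged CKO mice 95.4, 237, 273, 347 and 272. The CTL mouse 65 was high and the mouse labelled CKO 121 was low, and the aged groups overlapped only through the latter. The aged log2 fold change was 1.33 ± 0.35, and 1.37 ± 0.26 without 121 and 124.

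Cavin2 (chr1:51289126-51302960, plus strand), a caveolar coat protein, had 47.9, 51.1, 69.7 and 51.3 CPM in young CTL and 124, 125, 98.3 and 149 in young CKO mice. Again no mouse overlapped, and the log2 fold change was 1.18 ± 0.19. In aged mice the levels were wider: 59.2, 76.4, 138 and 236 CPM in CTL and 15.4, 409, 400, 325 and 264 in CKO. The mouse labelled CKO 121 had the lowest level of all 17 mice, and the log2 fold change was 1.16 ± 0.64 with it and the mouse labelled 124, and 1.28 ± 0.35 without both. The libraries of 1 mouse could differ strongly: in aged CTL 114, library A had 0 counts and library B 318.

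Tubb1 (chr2:174450695-174457882, plus strand), the tubulin of the platelet rim, was at the edge of detection. Young CTL mice had 1, 0, 0 and 0 counts, and young CKO mice 24, 20, 27 and 24 (4.75, 3.66, 5.16 and 3.61 CPM). The ratio of the summed counts, 95 against 1 and corrected for library size, was 96.6. It rests on 1 CTL count and is a description, without an interval for the spread between mice. In aged CTL mice it had 53 counts in mouse 65 and 0 in the other 3 mice. In aged CKO mice it had 14, 0, 49, 51 and 10 counts, so that the aged groups overlapped at both ends. The 53 counts of mouse 65 came from library B alone, with 0 in library A, and 3 further mice with Tubb1 counts (young CTL 1, young CKO 3 and aged CKO 121) also had them in 1 library only. A library holds 100 cells. How many cells or molecules these counts came from was not tested.

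Ache (chr5:137287519-137294466, plus strand), the esterase of mouse megakaryocytes, had the largest fold among the members detected in all mice. It had 4.4, 5.42, 2.18 and 8.6 CPM in young CTL and 18.4, 19, 18.6 and 30 in young CKO mice, which did not overlap (log2 fold change 2.07 ± 0.43). In aged mice it had 14.5, 5.32, 3.99 and 7.43 CPM in CTL and 14, 40.7, 63.6, 68 and 68.5 in CKO. The mouse labelled CKO 121 lay just under the highest CTL mouse, and the others were all higher. The log2 fold change was 2.73 ± 0.51, and 2.81 ± 0.42 without 121 and 124.

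The threshold used for all genes (edgeR quasi-likelihood test, adjusted p below 0.05) is no test of the members here, since the same contrast was used to pick them. In young mice 4 of 9 members lay past it, Plek, Rap1b, Cavin2 and Tubb1, beside 0.13% of 11526 genes as higher and 0.0434% as lower. Tubb1 entered the fit only through its counts in CKO mice. With either young CTL 1 or young CTL 2 left out, 0 members and 0 genes lay past it. In aged mice 0 of 9 members did, beside 0% higher and 0% lower of 11961 genes, where 1208 genes had an unadjusted p below 0.05 and DESeq2 called 104 genes and 3 members. Without 121 and 124, 3 members did, Plek, Rap1b and Ache, beside 0.208% higher and 0.125% lower of 12005 genes. Nothing is read from these counts of members.

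By ranges, 5 of 9 members had every young CKO mouse above every young CTL mouse, where 2.68% of all genes did. In aged mice 1 of 9 did, where 1.78% did, and without 121 and 124 5 of 9 did (Plek, Rap1b, Cavin2, Ache and Rasgrp2), where 6.06% did. The members were picked partly for these differences, and nothing is read from the counts. The median log2 fold change over the 9 members was 1.01 in young and 0.93 in aged mice (0.62 without 121 and 124), beside 0.00 in young and aged mice, and -0.01 without 121 and 124, over all genes tested.

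**Figure D3:**
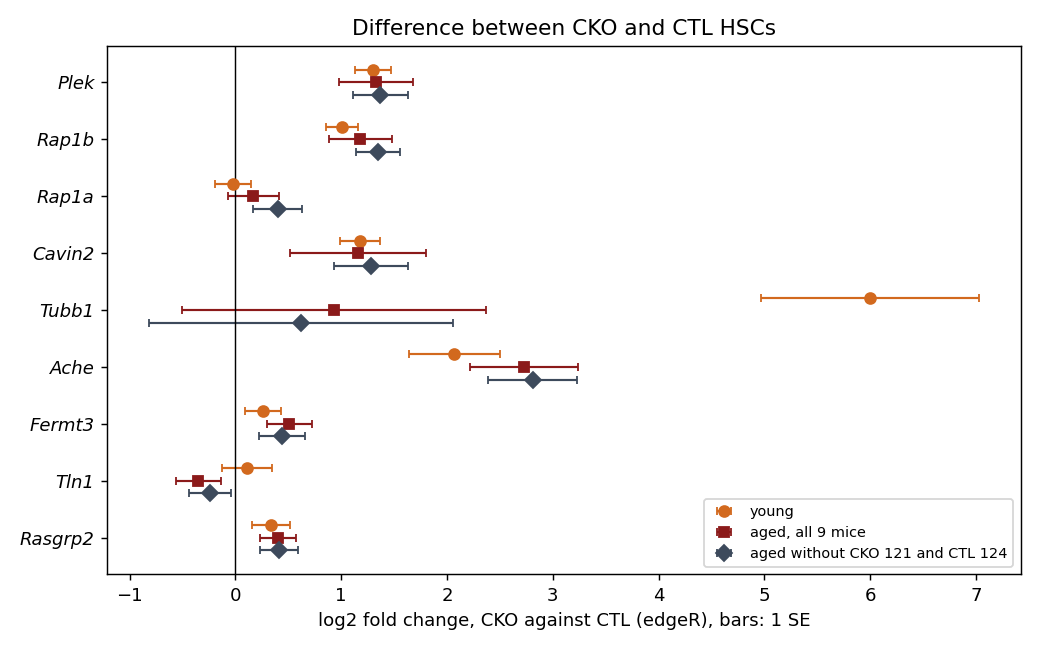
Log2 fold change of CKO against CTL HSCs (edgeR, bars 1 SE) for the 9 members in young mice, in all aged mice and in aged mice without those labelled CKO 121 and CTL 124. Plek, Rap1b, Cavin2 and Ache lie near or above 1 in each set, Tubb1 is 6.00 in young and 0.93 in aged mice with wide bars, and Rap1a, Fermt3, Tln1 and Rasgrp2 lie between -0.35 and 0.51.

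Whether the CKO against CTL difference itself depended on age was fitted as an interaction over all 17 mice. Over 12352 genes 0% passed (588 had an unadjusted p below 0.05, and DESeq2 called 0 genes), and without 121 and 124 15 genes did. The members' interaction values are made of the same genotype differences by which members were chosen, so they are given with no p. For Plek, Rap1b and Cavin2 the aged minus young difference in log2 fold change was 0.03 ± 0.41, 0.16 ± 0.36 and -0.01 ± 0.72, and 0.07 ± 0.31, 0.34 ± 0.26 and 0.12 ± 0.40 without 121 and 124. Sizeable differences lie within these errors. The largest value was that of Tubb1, -5.11 ± 2.11 (-5.41 ± 2.05 without both), which rested on a young CTL group with 1 count and on aged CTL 65, without which it was 1.12.

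Age within a genotype was not used to choose the members, although the levels of the same mice were. In CTL mice 6.7% of 12352 genes were higher and 8.07% lower in aged than in young HSCs, and in CKO mice 7.21% were higher and 9.34% lower. These shares were, of 12409 genes without 121 and 124, 7.7% and 9.92% in CTL and 7.68% and 10.4% in CKO mice. The median log2 fold change of all genes was 0.11 in CTL and 0.07 in CKO mice. Among the members 2 of 9 passed in each genotype, Rap1a lower and Fermt3 higher.

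Markers of other cells moved with age as well. Cd48, which marks progenitors outside the HSC gate, went from 67.9 ± 14 CPM in young to 11.8 ± 13.2 in aged CTL mice and from 102 ± 3.95 to 12.4 ± 9.1 in CKO mice, with every aged mouse below every young one of its genotype. The 3 listed markers of multipotent progenitors, Cd48 among them, summed to 464 to 581 CPM in young and 184 to 616 in aged CTL mice, and to 517 to 675 and 241 to 356 in CKO mice, none of them at 0 throughout a group. Of 15 platelet and megakaryocyte markers tested, 2 passed as higher with age in CTL and 4 in CKO mice (2 and 6 without 121 and 124), and 0 as lower. As a set they did not rise in CTL mice, where 6 of 15 were above 0 and the median log2 fold change was -0.09. In CKO mice 10 of 15 were above 0, with a median of 0.41. Without 121 and 124 these were 8 and 0.06 in CTL, and 10 and 0.64 in CKO mice. Pf4 (440 ± 170 to 233 ± 45.4 CPM), Gp9 (84.5 ± 9.27 to 59.6 ± 22.7) and Treml1 (32.4 ± 5.65 to 14.5 ± 7.47) had lower means in aged CTL mice. Selp, an adhesion receptor of platelet granules, rose by 3.35 ± 0.56 in CTL and 2.20 ± 0.51 in CKO mice on the log2 scale, and Vwf, von Willebrand factor, by 1.80 ± 0.39 and 1.48 ± 0.36. The part of these markers in the age differences given next was not tested.

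Rap1a was lower in aged HSCs of both genotypes. Young CTL mice lay between 100 and 124 CPM and aged CTL mice between 39.1 and 77.3, a log2 fold change of -1.0 ± 0.21 (edgeR, adjusted p = 0.00439), and it was lower in 4 of 4 aged mice than in any young one. Young CKO mice lay between 87.1 and 132 CPM and aged CKO mice between 49.6 and 71.6, a log2 fold change of -0.82 ± 0.20 (adjusted p = 0.0073), again lower in 5 of 5 aged mice than in any young one. Without 121 and 124 the values were -1.24 ± 0.20 in CTL and -0.81 ± 0.18 in CKO mice. It passed in all 23 alternatives run for each genotype. Some of these left out a mouse of the other genotype, which leaves the compared mice unchanged, and none held a Y-linked covariate. Rap1b did not pass in either genotype (CTL -0.43 ± 0.26, adjusted p = 0.276; CKO -0.27 ± 0.25, adjusted p = 0.488), nor without 121 and 124 (-0.41 ± 0.19 and -0.07 ± 0.17).

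Fermt3 was higher in aged HSCs. Young CKO mice lay between 289 and 509 CPM and aged CKO mice between 602 and 883, and it rose by 0.92 ± 0.20 on the log2 scale (edgeR, adjusted p = 0.00339), higher in 5 of 5 aged mice than in any young one. This passed in all 23 alternatives, the same settings as for Rap1a. Young CTL mice lay between 279 and 364 CPM and aged CTL mice between 388 and 689, and it rose by 0.67 ± 0.20 (adjusted p = 0.0312), higher in 4 of 4 aged mice. That call was lost when any of 5 CTL mice was left out, young CTL 1, 2 or 3 or aged CTL 99 or 124, with adjusted p between 0.0537 and 0.123. Without both 121 and 124 the rise was 0.83 ± 0.19 in CKO (edgeR, adjusted p = 0.006) and 0.63 ± 0.21 in CTL mice (adjusted p = 0.0408).

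Cavin2 was higher in aged mice of both genotypes by 1.2 ± 0.54 and 1.19 ± 0.52, and neither passed with all mice (edgeR, adjusted p = 0.143 in CTL and 0.122 in CKO). Without 121 and 124 both did, at 1.37 ± 0.30 (adjusted p = 0.00378) and 1.49 ± 0.27 (adjusted p = 0.00114). Ache behaved in this way in CKO mice, with 1.24 ± 0.45 (adjusted p = 0.0624) and 1.48 ± 0.38 without them (adjusted p = 0.0103). In CTL mice Ache differed by 0.59 ± 0.50 (adjusted p = 0.453), and by 0.74 ± 0.44 without them (adjusted p = 0.258). Tubb1 in CTL mice was fitted at 4.51 ± 1.75 (adjusted p = 0.0869) and 4.93 ± 1.69 without 121 and 124 (adjusted p = 0.0477), but this value stands on mouse 65, without which it was -1.73, and in CKO mice Tubb1 was at -0.60 ± 1.21 (adjusted p = 0.784), and -0.47 ± 1.17 without them. Plek (CTL 0.17 ± 0.30, CKO 0.20 ± 0.28), Tln1 (CTL 0.54 ± 0.25, CKO 0.07 ± 0.24) and Rasgrp2 (CTL 0.32 ± 0.17, CKO 0.38 ± 0.17) did not pass in either genotype, with adjusted p from 0.121 to 0.882. Without 121 and 124 they were at 0.34 ± 0.23 and 0.41 ± 0.21 (Plek), 0.35 ± 0.25 and 0.01 ± 0.23 (Tln1), and 0.30 ± 0.19 and 0.39 ± 0.17 (Rasgrp2) in CTL and CKO mice, and none passed.

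**Figure D4:**
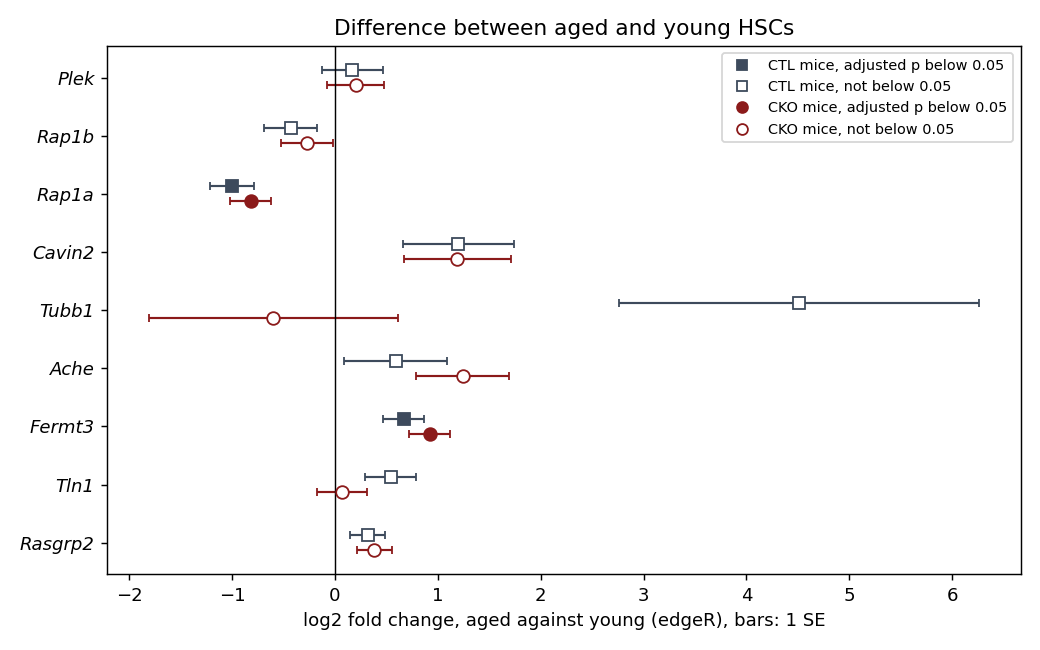
Log2 fold change of aged against young HSCs (edgeR, bars 1 SE) for the 9 members, in CTL mice (squares) and CKO mice (circles), filled where the adjusted p was below 0.05. Rap1a is lower (-1.0 and -0.82) and Fermt3 higher (0.67 and 0.92) in both genotypes, and the large value of Tubb1 in CTL mice (4.51) comes from 1 mouse.

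The members did not vary together as 1 unit among mice of a group. After subtracting group means, over 17 mice that share the same scaling, Plek and Rap1b had a Pearson r of 0.87, and 0.73 without 121 and 124. Rap1b and Cavin2 had 0.81, which fell to 0.20 without them, and Plek and Cavin2 had 0.70, which became -0.12, so these relations stood on the 2 mice. The lowest of the 36 pairs were Fermt3 and Rap1b with all mice (-0.48, and -0.39 without the 2 mice), and without the 2 mice Rap1b and Ache (0.28 with all, -0.70 without) and Rap1a and Ache (-0.46 and -0.70), followed by Cavin2 and Tln1 (-0.43 and -0.63). Cavin2 and Ache also turned, from 0.50 to -0.46. The genes most like Plek were Mccc1 (r = 0.89), E430018J23Rik (0.89) and Fbxo7 (0.88), and those most like Rap1b were Mt1 (0.88), Naa50 (0.87) and AI987944 (0.87). Those most like Cavin2 were Mmrn1 (0.97), Arpin (0.94) and Clu (0.93). Mmrn1 encodes a platelet and endothelial protein of storage granules. Those most like Tln1 were Dync1h1 (0.93), Ubr4 (0.92) and Mdn1 (0.91), all genes with very long transcripts. Rap1a was most like Hist3h2a (0.91), Tial1 (0.85) and Enc1 (0.83), Fermt3 most like Srp68 (0.88), Klhl26 (0.83) and Sae1 (0.82), and Rasgrp2 most like Mrps26 (0.85), Bcas2 (0.83) and Tnfrsf18 (0.82). Ache was most like Lrrc14 (0.86), Mypop (0.81) and Muc1 (0.81), and Tubb1 most like Clp1 (0.87), Mapre2 (0.83) and Lrrc56 (0.82). These are the 3 highest of 12352 genes for each member and are a description. In the 15 mice other than 121 and 124, the genes named for Cavin2 had 0.75 (Mmrn1), 0.68 (Arpin) and 0.53 (Clu), those for Plek 0.71 (Mccc1), 0.72 (E430018J23Rik) and 0.64 (Fbxo7), and those for Rap1b 0.56 (Mt1), 0.71 (Naa50) and 0.77 (AI987944), and the other 18 lay between 0.69 and 0.94.

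In the main edgeR test no gene of the wider pathway outside the members passed between the genotypes with all mice kept. Of the genes that switch Rap proteins on or off or act with them, outside the members, 0 of 19 tested passed in young and 0 of 20 in aged mice, with 0 and 1 at an unadjusted p below 0.05 and 0 by DESeq2 at both ages. The nearest in young mice were Rap2b (0.54 ± 0.27) and Sipa1l3 (-0.99 ± 0.49), in log2 fold change. Of the integrin chains and their adaptors, 0 of 33 passed in young mice (5 unadjusted, 2 by DESeq2), with Itga6 at 1.02 ± 0.21 (edgeR, adjusted p = 0.0939) and Itgb3, the platelet integrin beta chain, at 1.33 ± 0.28 (adjusted p = 0.0962). In aged mice 0 of 35 passed (10 unadjusted, 1 by DESeq2), and without 121 and 124 Itga2b, the partner chain of Itgb3, rose by 1.83 ± 0.23 (edgeR, adjusted p = 0.00316).

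Of the actin, myosin and tubulin genes abundant in platelets, 0 of 40 passed in young and 0 of 40 in aged mice, with 5 and 2 unadjusted and 0 by DESeq2. Of the platelet receptors and their enzymes, 0 of 31 passed at either age, with 8 unadjusted in young and 10 in aged mice and 1 by DESeq2 at each age. F2rl2, a thrombin receptor subunit, was at 1.5 ± 0.32 in young (adjusted p = 0.0969) and 1.63 ± 0.50 in aged mice (adjusted p = 0.342). The median log2 fold change in young mice was 0.01, 0.04, -0.04 and 0.06 in these 4 lists, in the order given, beside 0.00 over all genes. In aged mice it was -0.07, 0.26, 0.08 and 0.17, beside 0.00, with 9 of 20, 23 of 35, 28 of 40 and 18 of 31 genes above 0 (12 of 19, 19 of 33, 16 of 40 and 17 of 31 in young mice), and -0.12, 0.24, 0.14 and 0.08 without 121 and 124, beside -0.01.

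No relative of the members passed between genotypes either. Of 11 tested in young and 12 in aged mice, 0 passed by edgeR or DESeq2, with 1 and 0 at an unadjusted p below 0.05. Tubb5, the abundant beta-tubulin, had 1604 ± 200 CPM in young CTL and 1330 ± 68 in young CKO mice (log2 fold change -0.27 ± 0.12), and Tubb2a, Tubb4a, Tubb4b and Tubb6 were at 0.71 ± 0.45, -0.88 ± 0.82, -0.17 ± 0.22 and 0.55 ± 0.54. The other Rap proteins Rap2a and Rap2c were at 0.20 ± 0.27 and -0.13 ± 0.25, Cavin1 and Cavin3 at -0.22 ± 0.34 and 0.17 ± 0.21, and Rasgrp4 at 0.22 ± 0.25.

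Between ages genes of the pathway passed, as did many genes of the whole table, of which the shares given above (6.7% higher and 8.07% lower in CTL mice, 7.21% and 9.34% in CKO mice) are the background to these counts. Up to 4 genes per list, direction and genotype are named. A gene named in 1 genotype is therefore not shown to be unchanged in the other. Of 35 integrin and adaptor genes, 5 were higher and 1 lower in aged CTL mice, and 8 higher and 1 lower in aged CKO mice. Ptk2b, a focal adhesion kinase family member, went from 35.7 ± 6.3 to 113 ± 10.6 CPM in CTL mice (log2 1.66 ± 0.23; edgeR, adjusted p = 0.000274), and rose by 1.05 ± 0.21 in CKO mice. Itga6, the laminin-binding integrin chain, rose by 1.18 ± 0.22 in CTL and 0.95 ± 0.21 in CKO mice, and Lims1 by 0.67 ± 0.18 and 0.78 ± 0.17. Itga2b rose in CKO mice by 1.35 ± 0.32, Flna, a filamin, rose in CTL mice by 1.16 ± 0.28, Skap2 fell by 0.54 ± 0.17 in CTL mice and Itgb1bp1 fell by 0.58 ± 0.17 in CKO mice. In the other genotype the means of these genes moved the same way. Itga2b went from 73 ± 15.5 to 102 ± 45.3 CPM and Itgb1bp1 from 105 ± 11.1 to 91.4 ± 18.1 in CTL mice. Flna went from 96.4 ± 28.3 to 134 ± 35.7 CPM and Skap2 from 274 ± 9.2 to 207 ± 27.7 in CKO mice. When 121 and 124 were left out, 8 were higher and 0 lower in CTL and 7 higher and 1 lower in CKO mice, and Skap2 no longer passed (-0.38; edgeR, adjusted p = 0.0793). Leaving out each mouse gave 4 to 7 calls in CTL and 4 to 11 in CKO mice, the 4 in CKO mice without young CKO 3. The Skap2 call was lost in 6 of these 17 sets and the Itgb1bp1 call in 3.

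Of 40 platelet cytoskeleton genes, 5 were higher and 7 lower in aged CTL mice, and 8 higher and 4 lower in aged CKO mice. Actb and Actn4 rose in both (Actb 0.85 ± 0.20 and 1.07 ± 0.20; Actn4 0.94 ± 0.21 and 1.16 ± 0.20), while Tmsb4x, which holds actin monomers, fell in both, from 2541 ± 227 to 1188 ± 231 CPM in CTL and from 3049 ± 955 to 1352 ± 414 in CKO mice. Myl12a, a myosin light chain, also fell in both, by 0.72 ± 0.18 and 0.70 ± 0.17 on the log2 scale. Mylk, a myosin kinase (1.33 ± 0.35), rose in CTL mice, where Capzb and Cfl1, which act on actin filament ends and turnover, fell by 0.51 ± 0.14 and 0.54 ± 0.16. In CKO mice their means moved the same way (Mylk 32.1 ± 19.5 to 41.7 ± 9.63 CPM, Capzb 508 ± 45.8 to 446 ± 46.4, Cfl1 1492 ± 90.4 to 1198 ± 184). Cap1 (1.29 ± 0.34) and Msn (0.60 ± 0.17) rose in CKO mice, where Arpc2 and Arpc5 of the actin-branching complex fell by 0.53 ± 0.12 and 0.49 ± 0.16. In CTL mice the means of these genes moved the same way. Cap1 went from 32.3 ± 6.1 to 66.8 ± 36.4 CPM and Msn from 206 ± 23.6 to 297 ± 39.5. Arpc2 went from 1015 ± 55.6 to 777 ± 91.8 CPM and Arpc5 from 633 ± 45.1 to 434 ± 119. In the fit lacking 121 and 124, 8 were higher and 8 lower in CTL and 7 higher and 4 lower in CKO mice. Leaving out each mouse gave 4 calls (without young CTL 4) to 15 in CTL mice, with 6 without young CTL 1 or 3 and 7 without aged CTL 99, and 7 (without young CKO 2 or 3) to 12 in CKO mice. In CKO mice the Arpc5 call was lost in 7 of these 17 sets, Msn in 2 and Cap1 in 1. In CTL mice Cfl1 was lost in 4, Mylk in 2 and Capzb in 1. Among relatives of the members, 2 of 12 were higher in each genotype, Cavin1 (1.22 ± 0.35 and 1.48 ± 0.33) and Tubb6 (1.80 ± 0.54 and 1.70 ± 0.51). In CTL mice neither passed without young CTL 1 or young CTL 4, and in CKO mice Tubb6 did not pass without any of young CKO 1, 3 or 4 or aged CKO 94. Among relatives, 3 of 13 were higher in CTL and 2 of 13 in CKO mice without 121 and 124.

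Of 31 platelet receptor and signalling genes, 7 were higher and 0 lower in aged CTL mice, and 10 higher and 2 lower in aged CKO mice. F2rl3, a thrombin receptor, rose in both by 0.98 ± 0.23 and 0.91 ± 0.22, and Stim1, the calcium sensor of the endoplasmic reticulum, by 1.28 ± 0.30 and 1.25 ± 0.29. Plcg2 (0.63 ± 0.17) and Gnaq (1.43 ± 0.39) rose in CTL mice, and Akt2 (1.23 ± 0.28) and Tbxa2r (1.75 ± 0.47), the thromboxane receptor, in CKO mice. Their means moved the same way in the other genotype. In CKO mice Plcg2 went from 91.8 ± 8.3 to 140 ± 11.3 CPM and Gnaq from 18.1 ± 4.61 to 23.8 ± 10.5. In CTL mice Akt2 went from 50.3 ± 7.03 to 83 ± 33 CPM and Tbxa2r from 20.8 ± 8.99 to 49 ± 29.9. Fcer1g, an adaptor of immune receptors, fell by 1.74 ± 0.25 in CKO mice, and P2ry1, an ADP receptor, fell by 1.30 ± 0.43. In CTL mice their means were also lower with age (88.1 ± 19.7 to 55.6 ± 19.3 CPM and 27.5 ± 6.21 to 11.9 ± 8.68). Leaving out 121 and 124 together, 7 were higher and 1 lower in CTL and 12 higher and 2 lower in CKO mice, and Gnaq no longer passed (0.93; edgeR, adjusted p = 0.0514). Leaving out each mouse gave 2 (without young CTL 3) to 11 calls (without aged CTL 65) in CTL mice, with 3 without young CTL 1 or 4, and 7 (without young CKO 2 or 3) to 13 in CKO mice. The P2ry1 call in CKO mice was lost in 11 of these 17 sets, and in CTL mice the Gnaq call in 4 and the Plcg2 call in 3. Of the genes named with an age change in the pathway lists and among relatives, 10 of 18 in CTL and 15 of 21 in CKO mice passed whichever mouse was left out. These sets include those without a mouse of the other genotype, which leave the compared mice unchanged. Of the Rap switch genes, 0 of 21 passed in either genotype (3 unadjusted in CTL and 0 in CKO mice, 0 by DESeq2 in both). In CTL mice 2 of 22 passed as higher without 121 and 124, Rap2b (0.91; edgeR, adjusted p = 0.0396) and Rassf5 (0.60; adjusted p = 0.0455), and 0 in CKO mice. Whether any of these age differences itself differed between genotypes is the interaction above, which called 0 genes with all mice.

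Markers of platelets and megakaryocytes summed to more in CKO than in CTL HSCs. Of 17 listed, 16 were in the table, none was at 0 throughout a group, and their summed level was 1627 to 1918 CPM in young CTL and 2323 to 4456 in young CKO mice, and 1477 to 2142 in aged CTL and 2098 to 4095 in aged CKO mice. The lowest aged CKO mouse here was the one labelled 121. Pf4 made up much of the young difference: without it the sums were 1281 to 1379 CPM in young CTL and 1578 to 1919 in young CKO mice, which still did not overlap, and 1259 to 1855 in aged CTL and 1804 to 2811 in aged CKO mice. Of 15 tested in young mice 1 passed, Pf4, a granule chemokine that HSCs also carry (1.80 ± 0.34; edgeR, adjusted p = 0.0488), 11 were positive and the median log2 fold change was 0.58. The Pf4 call was lost without young CTL 1 or young CTL 2, where 0 genes passed. In aged mice 0 of 15 passed, 9 were at an unadjusted p below 0.05, and the median was 1.09, and without 121 and 124 3 passed, Pf4, Selp and Itga2b. The receptor chains and granule genes of platelets did not all go one way in young mice. Gp9 had 84.5 ± 9.27 CPM in CTL and 61.8 ± 14 in CKO mice, and Gp1ba 27.4 ± 7.27 and 23.1 ± 1.28. Gp5 had 35.9 ± 7.63 and 50.3 ± 23, Treml1 32.4 ± 5.65 and 48.2 ± 16.1, Itga2b 73 ± 15.5 and 98 ± 32.6, and Ppbp 7.51 ± 2.06 and 20.2 ± 8.5. Selp (18.6 ± 20.6 and 104 ± 46.2) and Vwf (17.2 ± 6.77 and 45.6 ± 8.19), like Ppbp and Pf4, were higher in every young CKO than in every young CTL mouse. In aged mice 14 of 15 markers tested had a higher fitted level in CKO, Gp9 (59.6 ± 22.7 and 110 ± 33) and Gp1ba (18.4 ± 15.4 and 39.6 ± 14.6) among them, and 15 of 15 without 121 and 124. Their part in the members' values was not tested. In these bulk libraries, more cells of a type and more RNA per cell cannot be told apart. The summed levels of lymphoid (84.5 to 111 and 101 to 163 CPM) and of neutrophil and monocyte markers (947 to 1087 and 1067 to 1287 CPM) were also somewhat higher in young CKO than in young CTL mice, with overlap. Those of erythroid markers were not (2695 to 3416 CPM, median 3127, in young CTL and 2445 to 3679, median 3065, in young CKO mice).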

How the data were processed

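HSC libraries of 100 cells were made by SMART-Seq2, sequenced, and aligned by the authors to GRCm38 (mm10) with HISAT2 and summarised per gene by Rsubread. The deposited values are raw counts for each gene in each library. Which annotation was used, whether counting was stranded, and how reads matching more than 1 gene were handled are not given in the sources used here. No molecular identifiers were used, so the 3-count floor covers counting error only. Of 34 libraries 33 were used, since aged CTL 99 B had 187034 counts, and the counts of a mouse were added.

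The main test was edgeR's (4.0.16, R 4.3.3) quasi-likelihood F test with TMM factors, on genes passing filterByExpr (minimum count 10, total 15), called at a Benjamini-Hochberg adjusted p below 0.05 over all genes. Each age had its own fit for genotype, and 1 fit over 17 mice gave the age differences and the interaction. CPM are TMM-scaled over 17 mice, and likeness was Pearson's r of log2 CPM (prior count 2) after subtracting group means. DESeq2 1.42.0 and the other settings of the closing section were alternatives. The scripts were tested on simulated data.

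The members and the gene lists were chosen with earlier results of these data known. Named beside the members are the 3 genes most like each, up to 4 called genes per list, direction and comparison by smallest adjusted p (where none, the 2 of smallest p), the expressed relatives and Ythdf2.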

Additional observations from a re-analysis of the deposited data

Results flagged for a closer look

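Within groups of 4 or 5 mice, 7 of 36 gene and group sets had 1 mouse far from the others by Dixon's ratio, where chance gives about 1.8. Rap1b was lowest in the mouse labelled aged CKO 121 (526 CPM), with the next mouse at 1387. Rap1a and Cavin2 were both highest in young CTL 3, at 124 CPM (next 104) and 69.7 CPM (next 51.3). Tubb1 was seen in only 1 mouse of each CTL group, young CTL 1 (0.22 CPM, 1 count) and aged CTL 65 (5.56 CPM). Ache was highest in young CKO 4 (30 CPM, next 19), and Rasgrp2 in aged CKO 81 (180 CPM, next 145).

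In the library left out for low depth, aged CTL 99 B, Plek had 42 counts or 225 CPM, above the highest aged CTL mouse used (163 CPM), while its pair, library A of that mouse, is the source of the 69.3 CPM given for mouse 99.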

How the results depend on the processing

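Counts of calls depended on the test and on single mice. In young mice the 20 genes and 4 members became 77 and 5 with DESeq2, 90 and 4 with libraries as replicates and a likelihood ratio test (Ache among the members in both), 9 genes and 2 members with the Y-linked covariate, and 1 gene and 0 members with all mice in one fit. In aged mice 0 genes and 0 members became 104 and 3 with DESeq2, 420 and 4 with libraries as replicates, 5 and 1 with all mice in one fit, and 40 and 3 without 121 and 124. The setting with libraries as replicates changes both the replicate and the test, and libraries of 1 mouse are not separate animals. Leaving out each mouse gave 0 to 18 genes and 0 to 3 members in young mice, 0 to 16 genes and 0 to 2 members in aged mice, and 0 to 2 genes and 0 members for the interaction, which gave 15 genes without both. For age it gave 896 to 2048 genes and 1 to 3 members in CTL mice (1825 and 2 with all) and 1183 to 2655 genes and 2 to 4 members in CKO mice (2045 and 2 with all). Library size alone gave 4 members in CKO mice, and leaving out 121 and 124 gave 4 in each genotype. With a replicate block, 14 genes and 2 members passed in young mice (mouse number) and 40 genes and 0 members in aged mice (library letter). The numbers of young mice mark different animals, their residuals had r of -0.02 to 0.05, and 2 of 4 CTL mice were most like their own number. Directions turned for the age difference in CTL mice of Tubb1 (-1.73 without aged CTL 65, up to 6.29 without young CTL 1) and of Plek2, the pleckstrin relative (-3.23 without aged CTL 124, -3.22 without both, up to 1.6 without aged CTL 65), for Plek2 between genotypes in aged mice (3.77 and 4.09, down to -1.04 without aged CTL 65) and in the interaction (3.44 and 3.76, down to -1.5 without aged CKO 78), and for Tubb6 in the interaction (0.76 without aged CTL 114, down to -0.57 without young CTL 3). The interaction of Tubb1 also turned, from -5.11 with all mice to 1.12 without aged CTL 65. Member values near 0 changed sign as well, such as Plek with age in CTL mice (0.17, down to -0.2 without aged CTL 65). The cause was not tested. Depth limits Tubb1, where 3 counts are the floor.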
